A study of Arabidopsis thaliana with 12 samples.

Results

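Genes for 8 pentatricopeptide repeat (PPR) proteins of the PLS class were followed in wild-type Arabidopsis thaliana, ecotype C24. Plants given PSII-specific light together with the electron transport inhibitor DCMU were compared with plants given PSI-specific light and no DCMU. The 8 loci are AT4G14050, AT3G22150, AT2G02980 (OTP85), AT3G49740, AT3G51320, AT3G26630, AT2G46050 and AT1G31790, each read by 1 feature that the platform annotation pairs with exactly 1 gene. They are 8 of the 692 features paired with 1 gene, among 3439 features in all. Total RNA was measured in 6 samples per group, and samples numbered 1 and 2, 3 and 4, and 5 and 6 of a group were averaged as technical partners to replicates 1, 2 and 3, which left n = 3 per group. The labels state no tissue, plant age, DCMU dose or time under the light, and do not say whether the replicates came from separate plants, so p-values measure only the spread between these samples. No group had PSII-specific light without DCMU or PSI-specific light with it, so light and inhibitor cannot be told apart.

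PPR proteins are encoded in the nucleus and bind RNA in plastids and mitochondria, where tandem repeats each recognise about a single base. Those of the PLS class alternate repeats of different lengths, often carry a C-terminal E or DYW extension, and are best known for choosing the cytidines that are edited to uridine in organelle transcripts. OTP85 is a plastid editing factor for the transcript of ndhD, a subunit gene of the chloroplast NDH complex, which carries electrons around photosystem I. DCMU stops electrons from passing from photosystem II to plastoquinone. The gene table used here gives a symbol for OTP85 and locus names alone for the other members, so no individual role is stated for those.

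Under PSII light with DCMU, AT3G22150, AT3G26630 and AT3G51320 rose and AT4G14050 fell, while OTP85, AT3G49740, AT2G46050 and AT1G31790 did not pass the test (limma, Benjamini-Hochberg over all 3439 features, adjusted p under 0.05). The 4 called members of 8 stand against 48.5% of all features called, a share near that of the array. With replicate number as a block 6 of the 8 members were called, against 48.2% of all features. Rises were called for 3 members, against 26.4% of all features, and a fall for 1 member, against 22.0%. The median log2 change of the 8 members was 0.72 and that of all features 0.04. In 6 members no replicate of one group reached the range of the other (5 members higher and 1 lower), where 60.7% of all features did not overlap (33.8% higher and 27.0% lower). Changes of at least 2-fold that passed the test were found in 2 members, AT3G22150 and AT4G14050, against 19.4% of all features. A bulk RNA sample does not separate fewer cells of a type from less RNA per cell.

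Median intensities of the samples were 0.632 to 0.687 under PSII light with DCMU and 0.542 to 0.584 under PSI light. Of 20 markers of green tissue 1 was measured, LHB1B2, an antenna protein gene of photosystem II. It had 10.03 ± 1.25 intensity units under PSII light with DCMU and 12.7 ± 0.825 under PSI light (SD, n = 3) and was brighter than 99.2% of features. Of 9 root and 5 pollen markers 0 were measured, so those tissues were not checked. Intensities are the deposited linear values, in units that are not defined in the sources used here, and levels are compared within a feature, not between features.

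**Figure D1:**
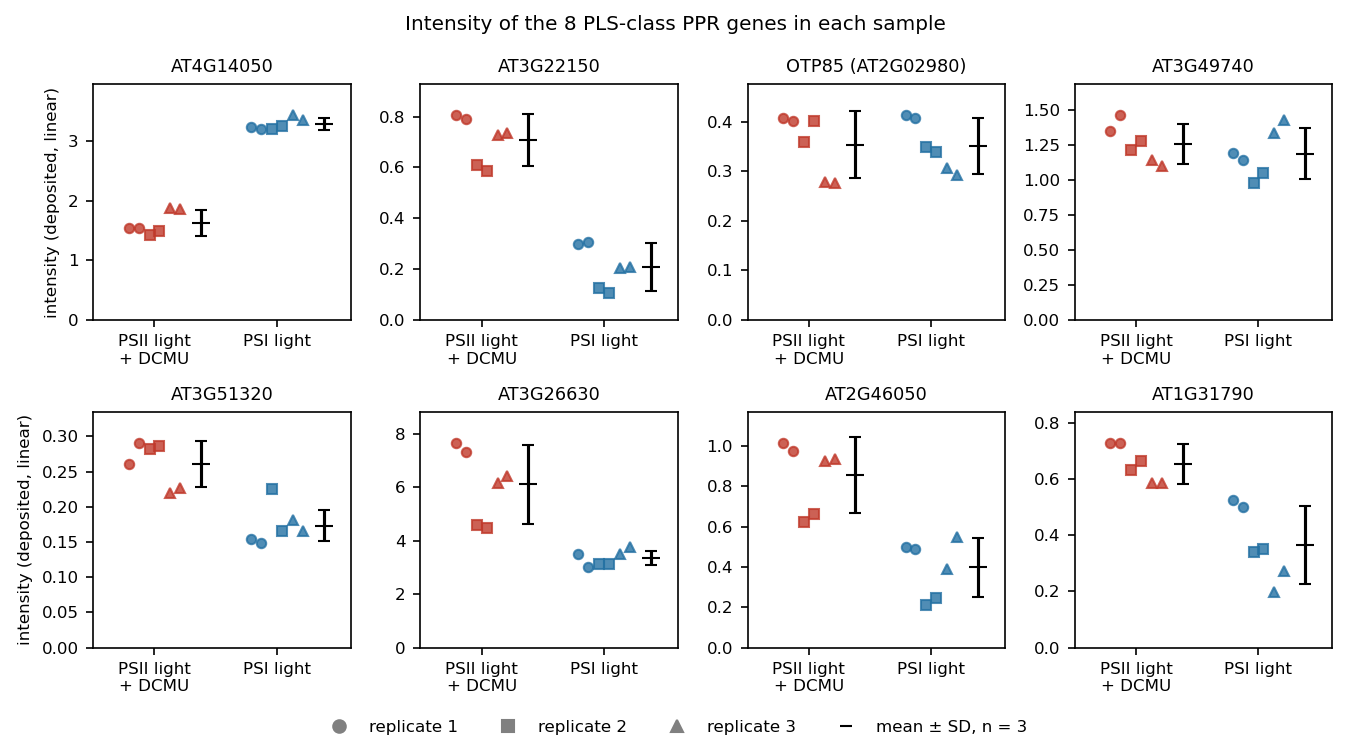
Deposited intensity (linear axis from 0, a scale of its own in each panel) of the 8 genes in the 12 samples, with PSII light with DCMU in red left of PSI light in blue. Marker shapes give the replicate each pair of technical partners forms, and black bars give the mean ± SD of 3 replicates; AT4G14050 is lower in all 6 samples under PSII light with DCMU, and OTP85 and AT3G49740 overlap.

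AT4G14050 was the member that fell. Its replicates had 1.54, 1.46 and 1.87 intensity units under PSII light with DCMU, against 3.22, 3.23 and 3.40 under PSI light. All 6 samples under PSII light with DCMU lay below all 6 under PSI light, and the PSI replicates were close together. The means were 1.62 ± 0.216 under PSII light with DCMU and 3.28 ± 0.0992 under PSI light (SD, n = 3), a log2 change of -1.03 ± 0.105 (SE; limma adjusted p = 0.00211). The level was 2.04-fold lower under PSII light with DCMU. Of all features 3.75% had a lower log2 change. The gene was bright, above 94.2% of features, and the brightest 344 features had a median log2 change of -0.44. With array place taken out (described below) its change was -0.62 ± 0.159 (adjusted p = 0.0115), and with place and brightness taken out -0.46 ± 0.166 (adjusted p = 0.0472), each still a fall.

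AT3G22150 had the largest rise of the 8. Its replicates had 0.799, 0.598 and 0.733 intensity units under PSII light with DCMU, against 0.303, 0.114 and 0.205 under PSI light. Replicate 1 was the highest and replicate 2 the lowest in each group, and the groups did not overlap in any sample. The means were 0.710 ± 0.102 under PSII light with DCMU and 0.207 ± 0.0942 under PSI light (SD, n = 3), a 3.67-fold difference by the log2 change, as are all folds given here (log2 change 1.88 ± 0.388, SE; limma adjusted p = 0.0155). Its change exceeded that of 95.2% of features. All its values stayed above the floor of 0.0431 set under low intensities. PSI samples 3 and 4 (0.124 and 0.105) lay below the 5th percentile of positive intensities (0.139). With that percentile added as a pseudocount the rise was 1.32 ± 0.222 (limma adjusted p = 0.00592). Without PSI replicate 2 the rise was 1.50 ± 0.234 (adjusted p = 0.0121). The call ended without PSII_DCMU replicate 1 or 3 (adjusted p = 0.0574 and 0.0549). With array place taken out the rise was 1.20 ± 0.314 (adjusted p = 0.0125), and with place and brightness taken out it was 1.01 ± 0.317 (adjusted p = 0.0264).

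AT3G26630 was the brightest member, above 97.5% of features. Its replicates had 7.50, 4.55 and 6.31 intensity units under PSII light with DCMU, against 3.27, 3.13 and 3.64 under PSI light. The replicates under PSII light with DCMU were spread far more widely, but the lowest of them stayed above the highest PSI replicate. The means were 6.12 ± 1.49 under PSII light with DCMU and 3.34 ± 0.264 under PSI light (SD, n = 3), a 1.80-fold difference (log2 change 0.85 ± 0.202, SE; limma adjusted p = 0.0240). The brightest 344 features had a median log2 change of -0.44, and features at places 1 to 96, where this gene sits, had -0.31. The 14 other features at its own place (91) had a median of -0.03, with 6 above 0. With place taken out the rise of AT3G26630 was 1.02 ± 0.198 (adjusted p = 0.00325). The call ended without PSII_DCMU replicate 1 or 3 or PSI replicate 1 or 2 (adjusted p = 0.0542 to 0.0780).

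A second feature names AT3G26630, but together with AT2G42920, so it cannot be assigned to either gene and is outside the 8. It was examined after its values were seen. Its samples ran from 1.01 to 1.16 intensity units under PSII light with DCMU and from 0.159 to 0.238 under PSI light, with no overlap. The means were 1.06 ± 0.0441 under PSII light with DCMU and 0.199 ± 0.0356 under PSI light (SD, n = 3), a 5.42-fold difference (log2 change 2.44 ± 0.141, SE; limma adjusted p = 0.000644). The shared feature and the feature of AT3G26630 alone thus changed in the same direction, with log2 changes of 2.44 and 0.85. With place taken out the shared feature stood at 1.40 (adjusted p = 0.000397).

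AT3G51320 was the dimmest member, with 10.9% of features dimmer. Its replicates had 0.276, 0.284 and 0.223 intensity units under PSII light with DCMU, against 0.151, 0.195 and 0.173 under PSI light. Averaged replicates did not overlap, but single samples did, because the partners that form PSI replicate 2 differed by 30.8% of their mean. The means were 0.261 ± 0.0331 under PSII light with DCMU and 0.173 ± 0.0220 under PSI light (SD, n = 3), a 1.51-fold difference (log2 change 0.60 ± 0.139, SE; limma adjusted p = 0.0221). This was the least settled of the 4 calls. After quantile normalization the change was -0.10 ± 0.139 (adjusted p = 0.614), the opposite sign, and centring the arrays on their medians gave 0.38 ± 0.158 (adjusted p = 0.0792). With place and brightness taken out it was 0.37 ± 0.141 (adjusted p = 0.0568). The features of similar brightness, the next 344 above the dimmest 344, had a median log2 change of 0.64, close to that of the gene. The call also ended without PSII_DCMU replicate 1 or 2 or PSI replicate 1 or 3 (adjusted p = 0.0537 to 0.0764).

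AT2G46050 and AT1G31790 were higher in every sample under PSII light with DCMU than in any sample under PSI light, yet missed the threshold. The replicates of AT2G46050 had 0.997, 0.645 and 0.930 intensity units under PSII light with DCMU, against 0.495, 0.228 and 0.470 under PSI light. Replicate 2 was the lowest of each group, so much of the spread was shared between same-numbered replicates. The log2 change was 1.17 ± 0.369 (SE, n = 3; 95% interval 0.22 to 2.13; limma adjusted p = 0.0520). With replicate number as a block the same change had an SE of 0.140 and an adjusted p of 0.0180, which passes. With place taken out it was 1.26 ± 0.226 (adjusted p = 0.00224), while after quantile normalization it was 0.99 ± 0.383 and missed (adjusted p = 0.0856). The partners that form PSI replicate 3 differed by 34.7% of their mean, the widest gap between partners among the 8 genes.

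The replicates of AT1G31790 had 0.730, 0.649 and 0.587 intensity units under PSII light with DCMU, against 0.514, 0.346 and 0.236 under PSI light. Here replicate 1 was the highest and replicate 3 the lowest in each group, and the spread was wider under PSI light. The log2 change was 0.92 ± 0.310 (SE, n = 3; 95% interval 0.11 to 1.72; limma adjusted p = 0.0633), while blocking on replicate number gave 0.92 ± 0.201 (adjusted p = 0.0458), which passes. With place taken out it was 0.53 ± 0.232 (adjusted p = 0.0872) and after quantile normalization 0.58 ± 0.236 (adjusted p = 0.0970). In the reference gene table the span of AT1G31790 overlaps that of the protein-coding gene AT1G31780, and that of AT3G49740 overlaps AT3G49730, so signal from a neighbour cannot be told apart there without the probe sequences. The other 6 members overlap no listed gene.

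OTP85, the member with a named editing target, showed nearly equal levels. Its replicates had 0.405, 0.381 and 0.277 intensity units under PSII light with DCMU, against 0.411, 0.344 and 0.299 under PSI light. Replicate 1 was the highest and replicate 3 the lowest in each group, and the groups overlapped throughout. The means were 0.354 ± 0.0679 under PSII light with DCMU and 0.352 ± 0.0565 under PSI light (SD, n = 3). The log2 change was 0.00 ± 0.197 (SE; limma adjusted p = 1), with a 95% interval of -0.51 to 0.51, so changes inside that range are not excluded. With replicate number as a block the same change had an SE of 0.0709 and an interval of -0.23 to 0.23. The 12 other features at the same place of their runs had a median log2 change of 0.76, and with place taken out OTP85 stood at -0.68 ± 0.164 (adjusted p = 0.00892), past the threshold for a fall. It stood at -0.51 ± 0.186 after quantile normalization (adjusted p = 0.0713) and at -0.21 ± 0.180 with arrays centred on their medians (adjusted p = 0.334). Whether OTP85 passed the test as lower therefore depended on how the arrays were treated.

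AT3G49740 also overlapped between the groups. Its replicates had 1.41, 1.25 and 1.12 intensity units under PSII light with DCMU, against 1.17, 1.01 and 1.38 under PSI light. Replicate 3 was the lowest under PSII light with DCMU and the highest under PSI light. The log2 change was 0.09 ± 0.148 (SE, n = 3; 95% interval -0.30 to 0.47; limma adjusted p = 0.681). It passed in 0 of the 15 alternatives, over which the change ran from -0.49 to 0.23.

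The replicate numbers were shared by the groups, and differences between same-numbered replicates are the direct view of that. AT4G14050 was lower under PSII light with DCMU at every number, with log2 differences of -1.06, -1.15 and -0.86 at numbers 1, 2 and 3. AT3G22150 was higher by 1.40, 2.39 and 1.84, and AT2G46050 by 1.01, 1.50 and 1.01. AT3G26630 was higher by 1.20, 0.54 and 0.79, AT1G31790 by 0.51, 0.91 and 1.33, and AT3G51320 by 0.87, 0.56 and 0.36. These 6 genes kept 1 direction at all 3 numbers. That had to be so, because their replicates did not overlap between the groups, and it adds no further support. Over all features 60.7% did not overlap. OTP85 had differences of -0.02, 0.14 and -0.11 and AT3G49740 of 0.26, 0.30 and -0.30, and these changed sign between numbers. With replicate number as a block 6 members passed the test, of which 5 rose, against 25.4% of all features, and 1 fell, against 22.7%. The blocked adjusted p was 0.0114 for AT4G14050, 0.0199 for AT3G22150, 0.0368 for AT3G26630 and 0.0432 for AT3G51320.

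**Figure D2:**
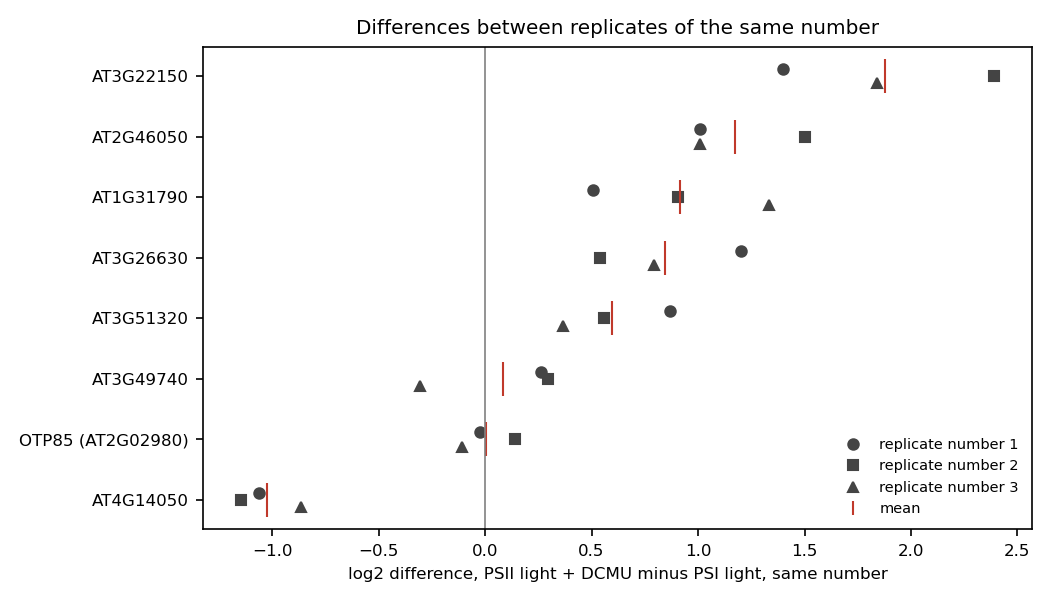
Log2 differences of PSII light with DCMU minus PSI light between replicates of the same number (circle 1, square 2, triangle 3) for the 8 genes, with the mean as a red bar. In 6 genes the 3 differences lie on the same side of 0, with AT4G14050 alone on the lower side, and in OTP85 and AT3G49740 they lie on either side.

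Changes on these arrays followed the order of the feature numbers, which falls into 16 runs of equal length. Features at places 1 to 96 of a run had a median log2 change of -0.31, those at places 97 to 192 of 0.42 and the rest of 0.16. AT4G14050 (place 95) and AT3G26630 (place 91) lie in the first of these stretches and moved in opposite directions, by -1.03 and 0.85. AT3G49740, AT3G51320, OTP85 and AT1G31790 lie at places 174, 176, 179 and 183 and had log2 changes of 0.09, 0.60, 0.00 and 0.92. AT3G22150 (place 227) and AT2G46050 (place 261) lie in the last stretch, with 1.88 and 1.17. The 12 other features at the place of AT3G22150 had a median of 0.97, and the 13 at the place of AT2G46050 had -0.29. Members at neighbouring places thus had unlike changes, and the part of place in each change was not tested beyond the values with place taken out.

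**Figure D3:**
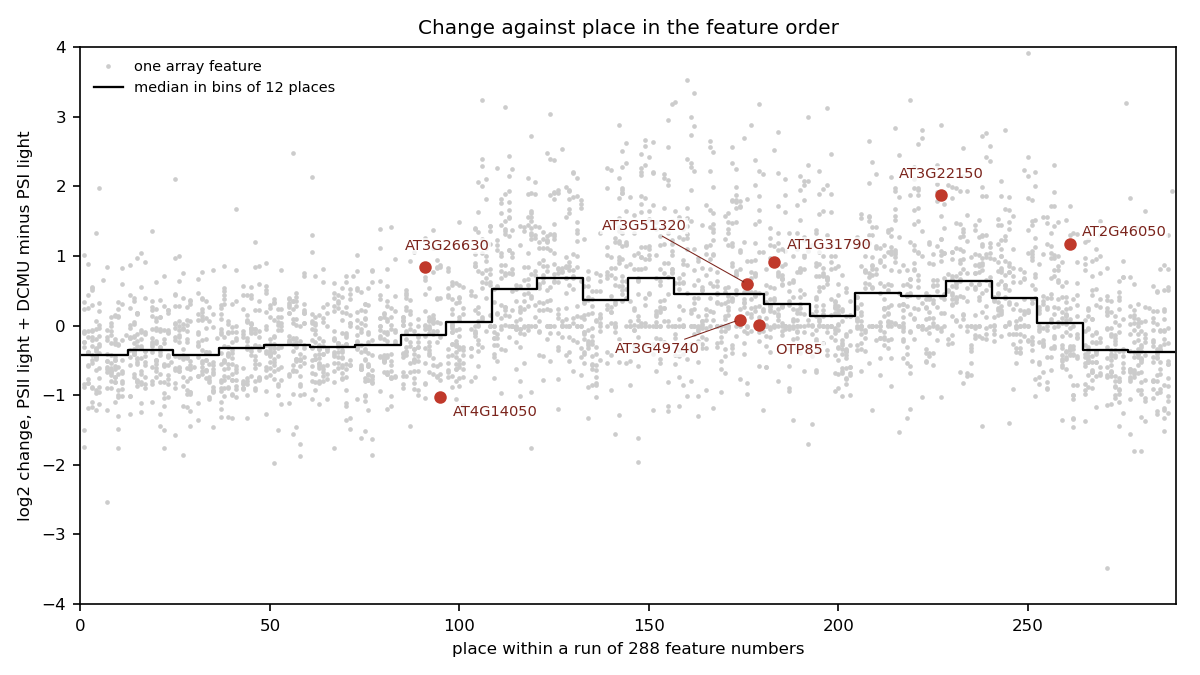
Log2 change (PSII light with DCMU minus PSI light) of all 3439 features in grey against their place within a run of feature numbers, with the median in bins of 12 places as a black line and the 8 genes in red. AT3G26630 lies above and AT4G14050 below the line at neighbouring places, and OTP85 and AT3G49740 lie below it.

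Taking place out changed which members passed. The changes of AT3G22150 (1.20), AT3G26630 (1.02), AT3G51320 (0.53) and AT2G46050 (1.26) were then called as rises and those of AT4G14050 (-0.62) and OTP85 (-0.68) as falls. Over all features 49.1% were then called, 32.5% higher and 16.6% lower. The correction has a limit of its own, because it also called 81 of the 141 features that lay at or under the floor in all samples, where no difference was measured. After quantile normalization 3 members passed, against 51.5% of all features. Rises made up 54.5% of all calls as deposited, 41.5% after quantile normalization, 40.9% with arrays centred on their medians and 66.1% with place taken out. Centring brought the median of all features to -0.18. Relative to it the members stood at 1.84 (AT3G22150), 1.13 (AT2G46050), 0.88 (AT1G31790), 0.81 (AT3G26630), 0.56 (AT3G51320), 0.05 (AT3G49740), -0.04 (OTP85) and -1.06 (AT4G14050). Centring moves every change by the same amount, so these distances had to equal those as deposited and add no support. AT4G14050 was the 1 member that kept its call and direction in all 15 alternative fits.

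**Figure D4:**
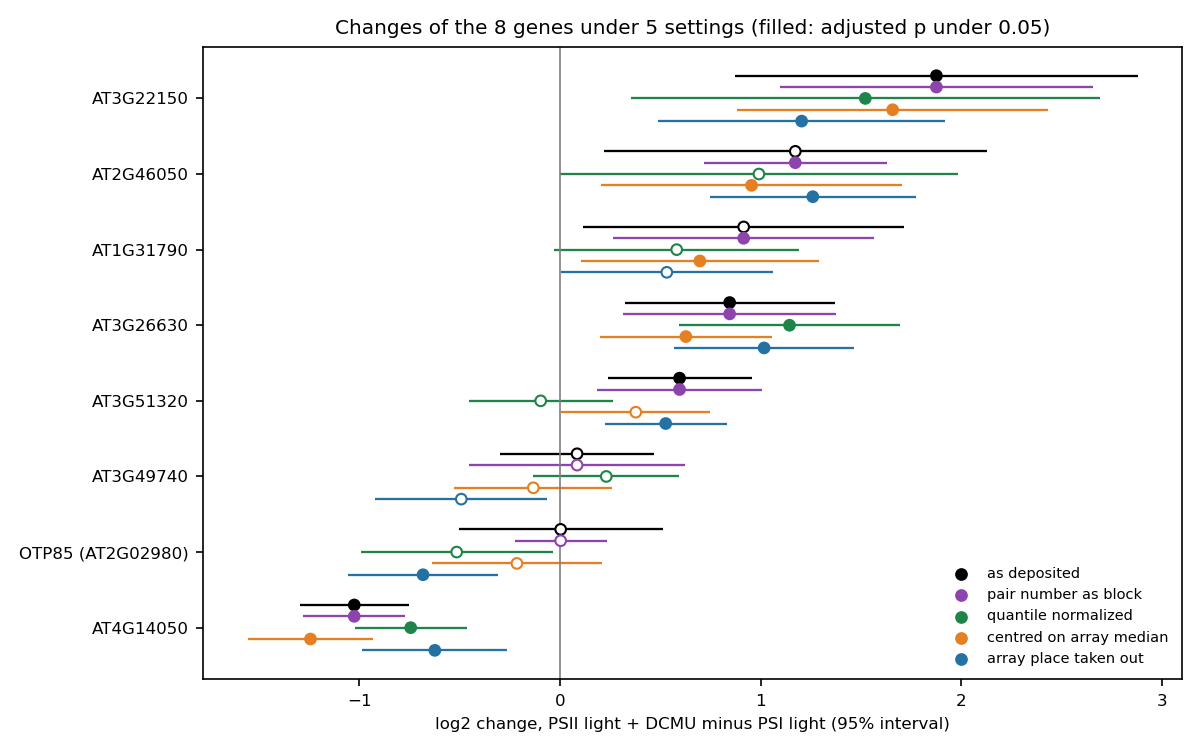
Log2 change with its 95% interval for the 8 genes under 5 settings, filled where the adjusted p was under 0.05. AT4G14050, AT3G22150 and AT3G26630 are filled in all 5, AT3G51320 crosses 0 after quantile normalization (-0.10), and OTP85 is filled on the lower side with place taken out (-0.68).

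Among themselves the members shared patterns that their group difference does not carry. With group means removed, AT3G22150 and AT2G46050 followed each other over the 6 replicates (Pearson r = 0.93), as did OTP85 and AT1G31790 (r = 0.79). The features of OTP85 and AT1G31790 are numbered 4499 and 4503, and no array layout was used here. AT4G14050 and OTP85 ran opposite (r = -0.83). Over the 28 pairs of members these are the extremes of a small set of points, and same-numbered replicates of the groups deviate together, so the values are descriptions.

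For each member the feature with 1 gene and the most similar pattern was found by Pearson correlation of log2 intensity over the 6 replicates. AT4G02040 was most like AT4G14050 (r = 0.99), AT4G01310 most like AT3G22150 (r = 0.996), AT1G06510 most like AT3G51320 (r = 0.97) and AT3G56010 most like AT3G26630 (r = 0.97). AT2G23890 was most like AT2G46050 (r = 0.99) and AT5G56850 most like AT1G31790 (r = 0.98). Each r is the highest of 646 and includes the group difference, but takes no account of its size. The log2 changes were -0.50 for AT4G02040, 0.79 for AT4G01310, 0.14 for AT1G06510 and 0.31 for AT3G56010. They were 0.52 for AT2G23890 and 1.13 for AT5G56850. AT2G23890 and AT2G46050 are features 3147 and 3141, at places 267 and 261. Of the 646 features searched, 12 (AT2G46050) to 87 (AT4G14050) exceeded 0.9 with each of the 6 members whose replicates did not overlap. For OTP85, AT4G03090 was the 1 feature that did (r = 0.94), and for AT3G49740 the nearest was AT2G19870 (r = 0.78).

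Of the other PPR genes, 11 were measured by a feature of their own, 4 of the PLS class and 7 of the P class, whose proteins carry repeats of a single length and mostly act in RNA stability, splicing and translation. Of these 11, 6 rose, 2 fell and 3 did not pass, beside 26.4% of all features higher and 22.0% lower, with a median log2 change of 0.68, close to the 0.72 of the 8 members and above the 0.04 of all features. CRR21, which like OTP85 is a plastid editing factor for the ndhD transcript, had 0.995 ± 0.0613 intensity units under PSII light with DCMU and 0.641 ± 0.153 under PSI light (SD, n = 3) and rose by 0.66 ± 0.180 (log2, SE; limma adjusted p = 0.0340). Its call ended with replicate number as a block (adjusted p = 0.0849), with arrays centred (0.0520) and with place taken out (0.0931). It also ended on leaving out PSI replicate 1 or 3 or any PSII_DCMU replicate (0.0721 to 0.102), and a difference between CRR21 and OTP85 was not tested. AT3G22690 had 0.382 ± 0.00250 intensity units under PSII light with DCMU and 0.174 ± 0.0305 under PSI light (SD, n = 3) and rose by 1.16 ± 0.138 (adjusted p = 0.00321), with 0.52 after quantile normalization (adjusted p = 0.00147). AT4G04370 rose by 0.80 ± 0.145 (adjusted p = 0.0108), with 1.22 when place was taken out (adjusted p = 0.00172). OTP70, a plastid PPR protein of the PLS class that acts in intron splicing, did not pass (0.20, adjusted p = 0.0645) and was chosen for naming after its value was seen. It passed as a rise after quantile normalization (0.41, adjusted p = 0.00575), with place taken out (0.54, adjusted p = 0.00966) and with place and brightness taken out (0.69, adjusted p = 0.00268). In the remaining alternatives OTP70 did not pass. Among them it stood at -0.02 with arrays centred (adjusted p = 0.927) and at 0.20 with dim features left out (adjusted p = 0.214).

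In the P class AT3G13150 rose by 1.67 ± 0.243, AT5G15280 by 1.40 ± 0.275 and AT2G17670 by 1.27 ± 0.143 (log2, SE, n = 3; limma adjusted p = 0.00554, 0.0132 and 0.00278). With place taken out these rises were 1.08 for AT3G13150, 0.69 for AT5G15280 and 0.82 for AT2G17670, each still called. AT2G19280 fell by 0.43 ± 0.0854 and AT1G79080 by 0.36 ± 0.0990 on the log2 scale (adjusted p = 0.0135 and 0.0339). With place taken out these falls were no longer called, at 0.04 for AT2G19280 and -0.04 for AT1G79080. The call of AT2G19280 also ended after quantile normalization (adjusted p = 0.312) and without PSII_DCMU replicate 3 (0.0512), and that of AT1G79080 without dim features (0.0569), without PSI replicate 2 or without any 1 PSII_DCMU replicate (0.0674 to 0.101). The call of AT5G15280 ended without PSII_DCMU replicate 1 (adjusted p = 0.05002). Of the 3 falls called among the 19 PPR genes, that of AT4G14050 was still called with place taken out. Of the 20 listed editing factors without PPR repeats 0 had a feature of their own, so the proteins that partner PLS-class factors were not followed.

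**Figure D5:**
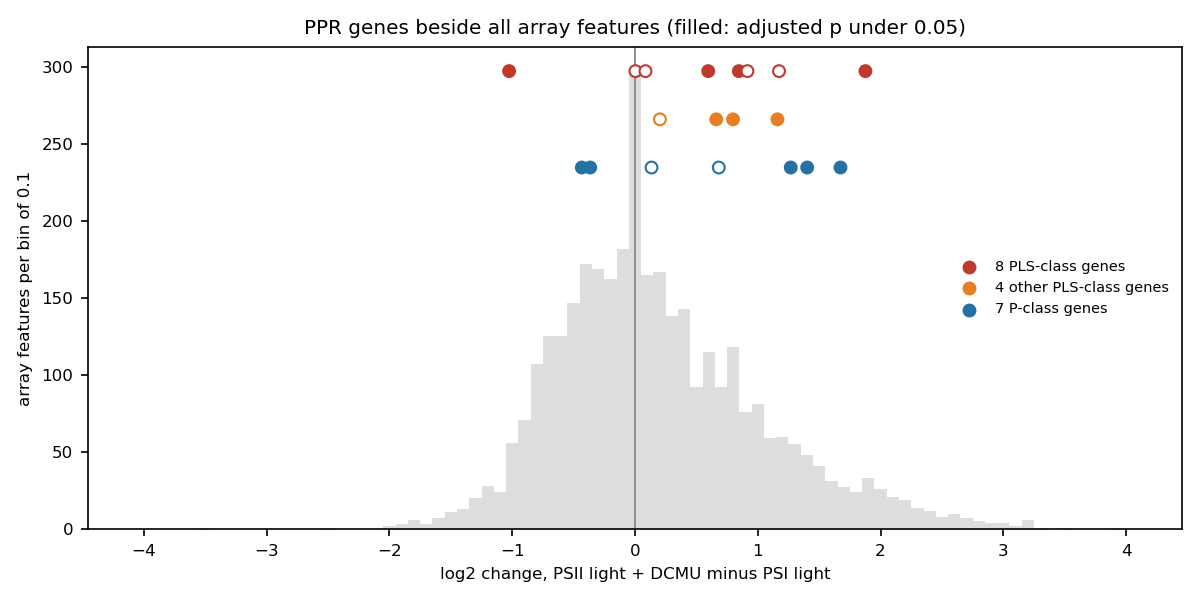
Log2 changes (PSII light with DCMU minus PSI light) of the 8 PLS-class genes (red), 4 other PLS-class genes (orange) and 7 P-class genes (blue), filled where the adjusted p was under 0.05, above a histogram of all 3439 features in bins of 0.1. Most PPR genes lie right of 0, with AT4G14050 farthest to the left at -1.03.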

How the data were processed

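The authors deposited 1 linear intensity per array feature and sample, from 0 to 100. Array type, scanner, background correction and scaling are not given in the sources used here. Means of the columns differed from their average by at most 3.25% and the medians from theirs by at most 11.9%. The table was kept as deposited, since the rule asked for either to be within 10%. Values under the 1st percentile of positive intensities (0.0431; 4.74% of values) were set to it before log2. Genes came from the platform annotation (692 features with 1 gene, 870 with several, 1877 with none) and the RefSeq TAIR10.1 gene table, which matched 690. No genome build is named, so no coordinates are given. That table holds no descriptions, so the other PPR genes and their classes were listed by hand from general knowledge of the loci, in place of the planned search of descriptions. Members and lists were chosen with earlier results of these data known.

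Technical partners of a group correlated at 0.38 to 0.66 in their deviations from group means and other samples at -0.51 to -0.18, so partners were averaged on the log2 scale. Same-numbered replicates across groups correlated at 0.29 to 0.36 and replicates of unlike number at -0.33 to 0.003. The numbers, which come from the titles, thus pair the replicates, and no label says what they mark. The main fit was planned without a block and leaves this pairing out. The fit used lmFit and eBayes of limma 3.58.1 (R 4.3.3), two-sided and without a block. It was run on simulated data with independent noise, which held no pairing or place effect and so cannot show how the fit handles them. An exact permutation test of 3 against 3 cannot go below p = 0.1. Intensities are mean ± SD of linear values of 3 replicates. Named were all 8 members, listed editing factors, called PPR genes and each member's most similar feature. Alternatives changed scaling, floor, filter, block, place, brightness and replicates. Place was taken out by subtracting, in each replicate, the mean deviation of the features at that place. Python 3.11.15 and matplotlib 3.10.9 were used for tables and figures.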

Additional observations from a re-analysis of the deposited data

How the results depend on the processing

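Of all 3439 features 1667 (48.5%) were called, and 1138 to 1685 when 1 replicate was left out. The members called numbered 4, and 1 to 4 with 1 replicate left out (1 without PSII_DCMU replicate 1, 2 without PSII_DCMU replicate 3). The other PPR genes called numbered 8 of 11, and 5 to 8 with 1 replicate left out (5 without PSII_DCMU replicate 1 or 3). In the alternatives that kept all replicates they numbered 7 to 10, with 0 falls once place was taken out. Under the other alternatives the members called numbered 3 to 6, with 6 under the replicate block (4 without it). Over all features 1641 to 1913 were called in those alternatives, of 3439 tested (3298 with dim features left out). Where 6 members were called, 1656 to 1892 features were. The median change of the 8 members lay between 0.40 and 0.76 over the 15 alternatives. At the low end, with place and brightness taken out, the median of all features was 0.16. At the high end, without PSII_DCMU replicate 3, it was 0.04. The members thus stood closer to all features at the low end. Direction turned for AT3G51320 after quantile normalization (-0.10) and for OTP85 with place (-0.68) and with place and brightness taken out (-0.89). Without a call in any of these fits, OTP85 also stood below 0 after quantile normalization (-0.51) and with arrays centred (-0.21), and AT3G49740 with arrays centred (-0.13), with place (-0.49) and with place and brightness taken out (-0.39); both also changed sign in at least 1 fit without 1 replicate. The cause was not tested. The block ended no call among the 8 members. AT1G31790 was called in 6 of its 15 alternatives and AT2G46050 in 8. The number of arrays and the unknown background limit the precision. Dixon's test marked no sample in the 16 gene-by-group sets of 6 samples, but each sample has a technical partner in its set, which leaves the test little able to mark one.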
